A study of Mus musculus with 34 samples.

Results

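The genes described here are 49 members of the cell division programme, measured on single-colour Agilent mouse arrays in cells from 2 routes to cardiomyocytes. They were taken by their names in the array files and fall into 3 subsets: 9 genes that act in G1, 12 genes of DNA replication and 28 genes of mitosis. All 49 were on the array, and all passed the filter on dim probes, out of 19408 genes tested. The study compared cardiomyocytes reached directly from fibroblasts with cardiomyocytes made by way of pluripotent cells, 17 groups of 2 arrays each, all from CD1 mice that carry an aMHC-GFP transgene, a fluorescent reporter under a cardiac myosin promoter. Fibroblasts (neoCF) and cardiomyocytes (neoCM) came fresh from the hearts of P1.5 pups. The direct route started from fibroblasts at day 0 (CF D0). These were infected with a retrovirus carrying Mef2c, Gata4 and Tbx5 on 1 transcript (MGT) or with a LacZ control, and were collected on days 3, 5, 7, 10 and 14. Induced cardiomyocytes (iCM) of this route were collected at 4 weeks. Fibroblasts were also turned into pluripotent lines with Oct4, Sox2, Klf4 and cMyc, and 2 lines were differentiated into cardiomyocytes, collected at day 13 (iPSC1-CM D13), at day 9 (iPSC2-CM D9) and, after long culture, at day 29 (iPSC2-CM D29). StemPro-34 medium with GlutaMAX was used for iCM and for iPSC-derived cells, with VEGF, bFGF, FGF10 and ascorbic acid. Each iPSC group is 1 line, and the arrays read whole RNA extracts, in which a lower share of dividing cells and less RNA per cell cannot be told apart. The design calls the arrays duplicates and does not say whether each came from a separate culture, so the p-values measure the spread between these samples.

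As background, D-type cyclins with Cdk4 and Cdk6, and E-type cyclins with Cdk2, phosphorylate the retinoblastoma protein in G1. This frees E2F factors to switch on the replication genes. The mitosis genes are switched on later by a complex of MuvB proteins, B-Myb (Mybl2) and Foxm1, and in resting cells the DREAM complex holds them silent. Heart muscle cells of newborn rodents still replicate DNA for a few days after birth and then largely leave the cell cycle, while cardiac fibroblasts keep dividing in culture.

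Promoter sequences are shown because the mitosis and replication subsets differed in the DNA words next to their start sites as well as in their levels. RefSeq windows of 300 bases, 250 before and 50 after the start (GRCm38.p6), were found for 40 of the 49 genes. The cell cycle homology region (CHR, searched as TTTGAA or TTCGAA on both strands) is the site through which MuvB complexes bind. It was present in 17 of 23 mitosis promoters (73.9%), in 3 of 11 replication promoters (27.3%) and in 0 of 6 G1 promoters, against 21.7% of the 27025 promoters in the table. E2F words (TTTCCCGC, TTTGGCGC, TTTCGCGC or TTTGCCGC, both strands, overlaps counted) were present in 6 of 11 replication promoters (54.5%), 1 of 6 G1 promoters and 0 of 23 mitosis promoters, against 2.60% of all promoters. The word CCAAT, bound by NF-Y, was present in 18 of 23 mitosis promoters and 8 of 11 replication promoters, against 41.1% of all. A match is a description of the letters and not a measured binding site. In Ccnb2 (cyclin B2), Plk1 (a mitotic kinase) and Cenpa (the histone H3 variant of centromeres), capitals mark CHR and CCAAT words on either strand. In Mcm3 and Mcm5, subunits of the replicative helicase, capitals mark E2F words, which in Mcm5 overlap each other. The windows lie at chr9:70421505-70421804 (minus strand) for Ccnb2, chr7:122159185-122159484 (plus) for Plk1, chr5:30666636-30666935 (plus) for Cenpa, chr1:20820263-20820562 (minus) for Mcm3 and chr8:75109259-75109558 (plus) for Mcm5.
Ccnb2: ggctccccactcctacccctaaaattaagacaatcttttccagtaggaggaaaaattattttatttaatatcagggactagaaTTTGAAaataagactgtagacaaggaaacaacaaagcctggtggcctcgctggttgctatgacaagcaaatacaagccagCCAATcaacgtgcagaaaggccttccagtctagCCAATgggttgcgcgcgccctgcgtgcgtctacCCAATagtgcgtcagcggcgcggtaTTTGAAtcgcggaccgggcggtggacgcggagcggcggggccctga
Plk1: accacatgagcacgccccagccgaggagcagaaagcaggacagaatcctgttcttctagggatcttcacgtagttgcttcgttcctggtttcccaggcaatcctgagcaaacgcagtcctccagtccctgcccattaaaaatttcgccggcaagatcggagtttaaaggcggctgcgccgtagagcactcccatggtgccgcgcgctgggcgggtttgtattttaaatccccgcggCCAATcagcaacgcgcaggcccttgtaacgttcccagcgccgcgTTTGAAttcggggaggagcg
Cenpa: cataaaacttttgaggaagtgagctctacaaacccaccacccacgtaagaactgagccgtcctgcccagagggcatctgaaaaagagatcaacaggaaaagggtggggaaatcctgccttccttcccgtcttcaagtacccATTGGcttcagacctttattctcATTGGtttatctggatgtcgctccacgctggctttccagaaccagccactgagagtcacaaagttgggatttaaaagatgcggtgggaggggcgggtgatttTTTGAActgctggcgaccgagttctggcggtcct
Mcm3: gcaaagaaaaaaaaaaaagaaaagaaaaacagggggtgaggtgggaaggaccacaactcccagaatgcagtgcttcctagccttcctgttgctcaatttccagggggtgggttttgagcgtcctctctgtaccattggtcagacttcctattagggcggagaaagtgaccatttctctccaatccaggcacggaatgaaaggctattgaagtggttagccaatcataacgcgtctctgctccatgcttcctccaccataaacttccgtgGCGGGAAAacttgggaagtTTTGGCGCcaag
Mcm5: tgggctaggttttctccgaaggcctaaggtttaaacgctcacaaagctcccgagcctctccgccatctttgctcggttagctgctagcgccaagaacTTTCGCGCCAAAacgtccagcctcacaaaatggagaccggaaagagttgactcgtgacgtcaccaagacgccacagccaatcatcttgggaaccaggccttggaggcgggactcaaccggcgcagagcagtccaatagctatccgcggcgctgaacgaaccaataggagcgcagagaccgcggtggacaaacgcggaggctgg
Counted from the start site, the CHR word of Plk1 began at 31 and its CCAAT word at -14. In Ccnb2 the CHR words began at -167 and 5, with CCAAT words at -87, -54 and -21. Cenpa carried its CHR word at 17. The pattern extended to genes outside the 49: CHR words were present in 14 of 19 promoters from a list of other mitosis genes, and E2F words in 5 of 19 from a list of other replication genes. E2F words were also present in 2 of the 19 other mitosis promoters (10.5%).

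Levels below are log2 values relative to the 75th percentile of the same array, so 0 is the level of that percentile, and a difference of 1 is a 2-fold difference. Levels of different genes come from different probes and are not compared. Between 28715 and 44881 of 59305 spots per array were well above background, and 43 of the 49 genes were so on all 34 arrays. The exceptions were Cenpf on 18 arrays, Ccne2 on 27, Aurkb on 29, Ttk on 31, and Cdc25c and Bub1 on 33 each. The arrays of a group correlated at 0.984 to 0.997 over all genes tested in 16 groups and at 0.895 in iPSC2-CM D29. Of the 3 subsets, the mitosis genes differed most between the D29 arrays. A gene is counted as changed, or called, at an adjusted p under 0.05 and at least 2-fold in 1 limma fit to all 34 arrays, with Benjamini-Hochberg adjustment over all genes. The D29 arrays enter that shared spread: the standard error of Mki67 differences was 1.06 with them and 0.19 in a fit without them, which was added after the data were seen. Counts from the fit without D29 are given wherever they differ from the others by more than 1.5 times. The defining markers bore out the labels in part. The 10 cardiomyocyte markers were all called higher in neoCM than in neoCF. They were also all higher in MGT than in LacZ cultures at days 7, 10 and 14. In iCM against neoCF, 6 of the 10 were called higher and 1 lower. Fibroblast markers were called lower for 2 of 10 in neoCM against neoCF. In MGT against LacZ they were lower for 0, 0 and 3 of 10 on days 7, 10 and 14. Markers of other cell types were present too: cardiomyocyte, endothelial and macrophage markers were all well above background on both neoCF arrays (10 of 10, 8 of 8 and 10 of 10). Fibroblast markers were at 10 of 10 on the neoCM and iCM arrays, with summed levels (log2) of 10.0 and 9.98 in neoCM and 9.70 and 9.40 in iCM, against 10.2 and 10.3 in neoCF.

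Mitosis genes were highest in early iPSC-derived cardiomyocytes and lowest in iCM. The median level over the 28 genes was 3.29 and 3.13 on the iPSC1-CM D13 arrays and 2.73 and 2.69 in iPSC2-CM D9. It was 2.39 and 2.29 in neoCF, 2.16 and 1.98 in neoCM, and 2.04 and 2.07 in CF D0. It was -1.02 and -0.83 in iCM, below every other array except the D29 array at -2.13, whose partner stood at 2.20. Of the 28 genes, 25 had their lowest group mean in iCM and 17 their highest in iPSC1-CM D13. The infected cultures were highest in LacZ D5 (2.16 and 2.22), followed by MGT D5 (1.93 and 1.99), MGT D3 (1.91 and 1.87) and LacZ D3 (1.86 and 1.88), of which the day 3 groups overlapped. The later cultures, days 7 to 14, lay between 0.70 and 1.36.

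**Figure D1:**
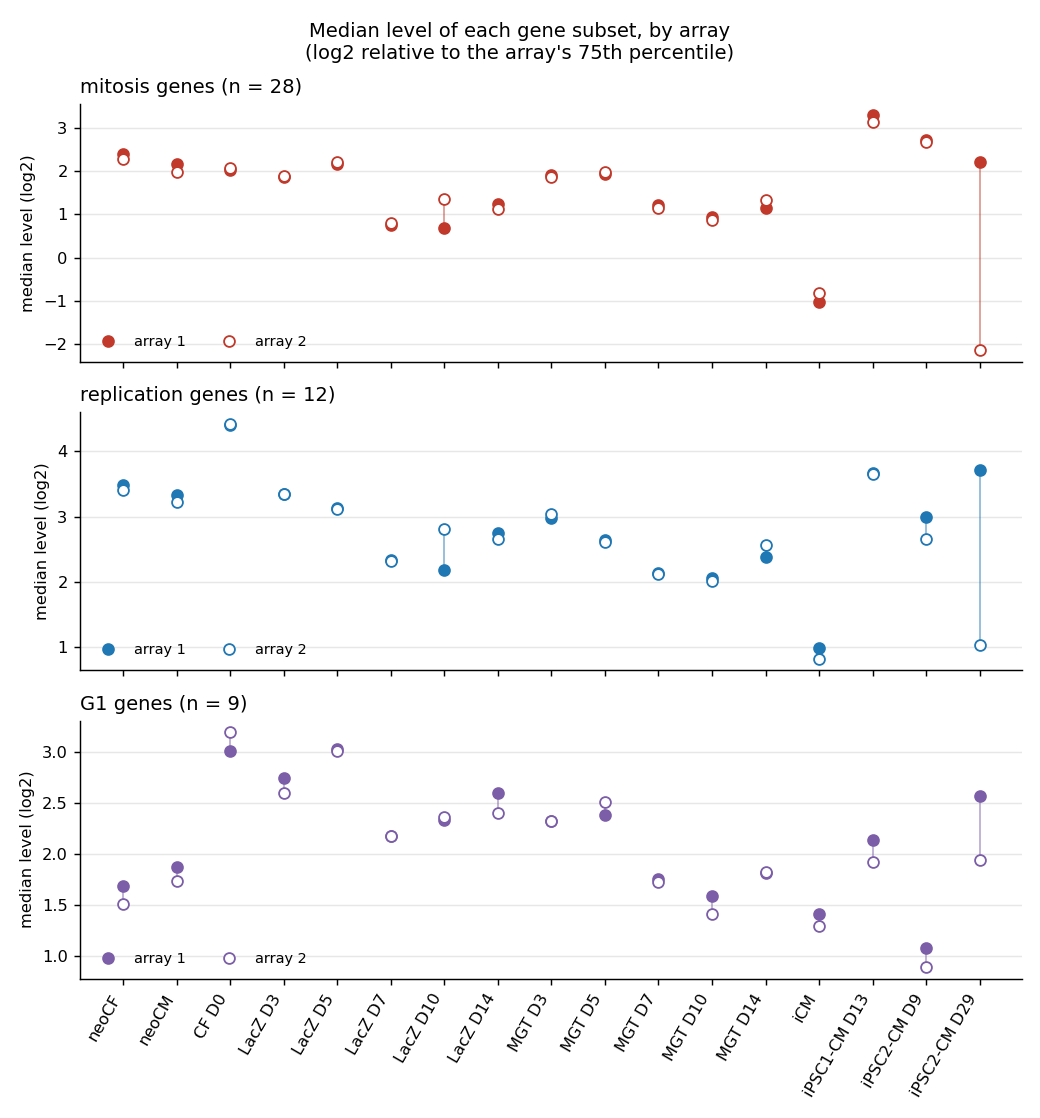
Median level (y axis, log2 relative to the 75th percentile of the array) of the 28 mitosis, 12 replication and 9 G1 genes in 17 groups (x axis); filled and open points are the 2 arrays of a group, joined by a line. The iCM arrays sit at -1.02 and -0.83 in the mitosis panel, CF D0 is highest in the replication panel (4.41 and 4.42), and the iPSC2-CM D29 arrays lie far apart (2.20 and -2.13 for mitosis).

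Replication genes peaked elsewhere. Their median was 4.41 and 4.42 in CF D0, 3.68 and 3.65 in iPSC1-CM D13, 3.49 and 3.40 in neoCF and 0.99 and 0.83 in iCM. Of the 12 genes, 11 had their highest group mean in CF D0, the exception being E2f8, an atypical E2F that represses E2F targets, in iPSC2-CM D9. Of the 12, 9 were lowest in iCM. The G1 genes had no common order: their median ranged from 0.89 and 1.08 in iPSC2-CM D9 to 3.01 and 3.19 in CF D0, and their individual peaks fell in 6 different groups.

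Most mitosis genes moved together over the 17 groups. Each gene's group means were correlated with the median of the remaining mitosis genes. The 17 points share arrays and normalization, so the r values are descriptive. The points include iCM, the lowest group, and the D29 mean, whose arrays had mitosis medians of 2.20 and -2.13. How far these groups set the r values was not tested. Among mitosis genes r had a median of 0.914, and 18 of 28 exceeded 0.9, with Top2a, the topoisomerase that untangles sister chromatids, at 0.97. Cenpa was the lowest at 0.39. Replication genes had a median r of 0.676, from 0.08 for Pcna, the polymerase clamp, to 0.922 for E2f8. G1 genes ranged from -0.579 for Ccnd2 to 0.564 for Cdk4, and both Ccnd1 and Ccnd2 were negative.

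The iCM, the 4-week end of the direct route, had lower mitosis and replication transcripts than all 6 references. Against neoCF, 26 of 28 mitosis genes and 10 of 12 replication genes were lower and none higher, while 37.3% of all genes tested were called, 17.8% higher and 19.5% lower. The median difference was -3.73 for mitosis genes and -2.19 for replication genes, against 0.045 over all genes. Mki67, the proliferation antigen, stood at 4.91 and 4.81 in neoCF and at 0.26 and 0.42 in iCM. Kif23, a kinesin of the central spindle, stood at 1.68 and 1.56 in neoCF and at -3.08 and -2.74 in iCM. The arrays of the groups did not overlap for either gene. The log2 difference was -4.52 ± 1.06 (SE) for Mki67 (adjusted p = 0.0012) and -4.54 ± 0.53 for Kif23 (adjusted p = 5.4e-07). The 2 mitosis genes not called were Cenpa (2.71 and 2.83 in neoCF, 1.84 and 1.92 in iCM) and Anln, the cytokinesis scaffold anillin (3.50 and 3.22 against 2.74 and 2.83).

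Among replication genes, Cdc6, which loads the helicase at origins, stood at -0.46 and -0.67 in neoCF and at -5.01 and -4.80 in iCM, a difference of -4.34 ± 0.41 (adjusted p = 3.6e-08). E2f8 fell by 3.68 ± 0.34 on the log2 scale (adjusted p = 2.6e-08) and Mcm5 by 3.35 ± 0.69 (adjusted p = 0.00036). The other genes of these pathways did likewise. Of 24 other mitosis genes, 23 were lower in iCM than in neoCF, led by Melk (-4.32), a kinase of dividing cells, and the chromokinesin Kif4 (-4.02). Of 24 other replication genes, 20 were lower, led by Uhrf1 (-4.44), which copies DNA methylation, and Mcm10 (-4.01). Genes of the RB and DREAM complexes split: 5 of 14 were lower, among them the repressor E2f7 (-4.57) and the activator E2f2 (-3.39), and 2 were higher, the p130 gene Rbl2 (1.82 ± 0.17, adjusted p = 2.8e-08) and Lin52 (1.25 ± 0.18), a MuvB subunit.

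The fall did not depend on fresh fibroblasts as the reference. Against MGT D14 cultures, infected with the same factors, 24 of 28 mitosis and 7 of 12 replication genes were lower (median -2.40 and -1.58), with 20.4% of all genes called, 8.70% higher and 11.7% lower. Against LacZ D14, 25 and 9 were lower, with 28.1% of all genes called, 10.3% higher and 17.8% lower. These 2 counts fell when any 1 array was left out. The median mitosis difference from MGT D14 then lay between -2.46 and -2.29. Without the D29 arrays 27 of 28 mitosis genes were called lower than in MGT D14, where 13.2% of all genes were. Mki67 stood at 3.44 and 3.68 in MGT D14 and 3.83 and 3.88 in LacZ D14. It was lower in iCM by 3.22 ± 1.06 (adjusted p = 0.0227) and by 3.52 ± 1.06 (adjusted p = 0.0107). The call against MGT D14 was lost without any 1 of the 4 arrays, and that against LacZ D14 without iCM replicate 1 or LacZ D14 replicate 2. Both calls were lost without any 1 array for Bub1, the checkpoint kinase, which read -0.24 and 0.04 in MGT D14 and -3.67 and -3.75 in iCM.

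Against neoCM, 25 of 28 mitosis and 10 of 12 replication genes were lower in iCM, with 39.0% of all genes called, 18.9% higher and 20.1% lower. Ccna2, cyclin A2, stood at 3.80 and 3.55 in neoCM and at -1.06 and -0.74 in iCM, a difference of -4.58 ± 0.94 (adjusted p = 0.00033). Bub1b (-4.32), a spindle checkpoint protein, and the spindle kinesin Kif11 (-4.05) followed. Against the mean of the early iPSC-derived groups, all 28 mitosis genes and 9 of 12 replication genes were lower, with 46.1% of all genes called, 21.7% higher and 24.4% lower, and the median mitosis difference was -4.15. Against CF D0, 24 mitosis genes and all 12 replication genes were lower, with 40.8% of all genes called, 18.7% higher and 22.2% lower, and Cdc6 differed most among the latter (-5.82 ± 0.41, adjusted p = 3.8e-10). In the same comparison Mybl2, B-Myb, fell from 3.23 and 3.18 to -1.82 and -1.66.

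**Figure D2:**
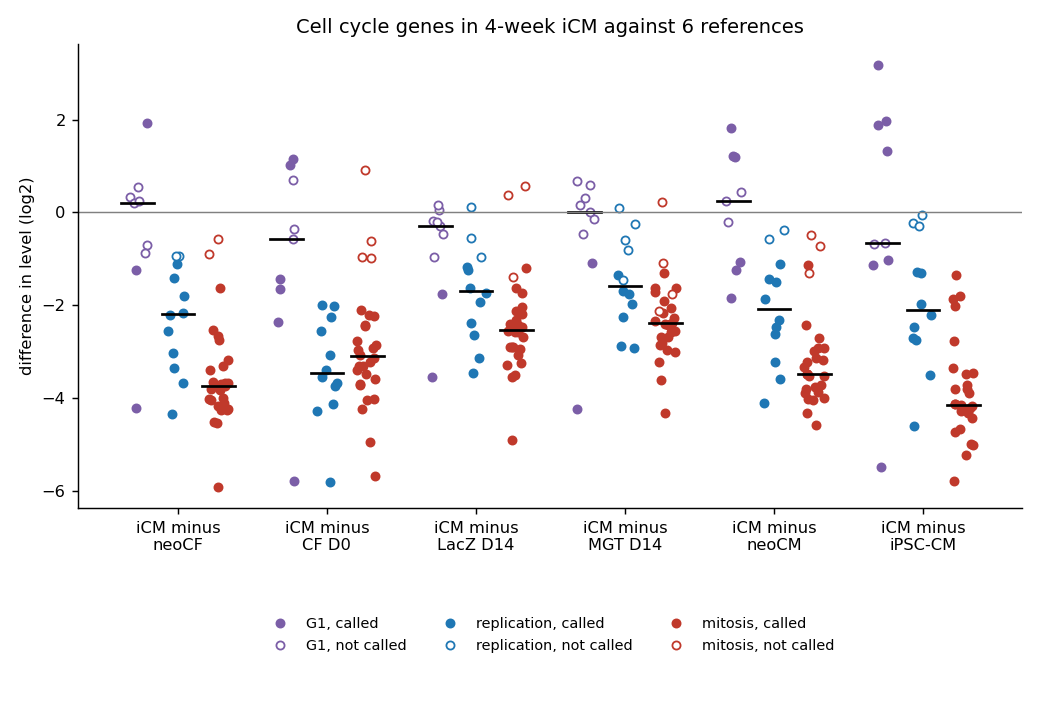
Difference in level between iCM and each of 6 references (y axis, log2; iPSC-CM is the mean of iPSC1-CM D13 and iPSC2-CM D9), 1 point per gene, coloured by subset and offset sideways for legibility. Filled points were called, open points were not, and black bars are medians: the mitosis median lies between -2.40 and -4.15 against every reference, while G1 genes lie on both sides of 0.

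The iCM arrays shared a slide with 1 neoCM array only; with slide as a block, which leaves the comparison to that 1 neoCM array, 39 members were called in place of 41. For the other iCM comparisons slide and group cannot be told apart. Cell type markers also moved with them. Macrophage markers summed to 6.83 and 6.80 in iCM (log2 of the summed signal, relative to the 75th percentile), against 6.70 and 6.21 in neoCF and 7.65 and 7.79 in MGT D14, with 10 of 10 well above background in all. Endothelial markers summed to 3.1 and 3.0 in iCM and to 7.66 and 7.68 in neoCF. Against other references the markers parted more. Macrophage markers summed to 2.42 and 2.40 in neoCM and to between 0.73 and 1.67 in the early iPSC-derived groups, and 10 of 10 were higher in iCM than in either reference. Cardiomyocyte markers were lower in iCM than in neoCM for 8 of 10, and fibroblast markers higher than in the iPSC-derived groups for 9 of 10. The part of these cells in the result was not tested.

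Aurkb, the kinase of the chromosomal passenger complex, and Ccne2, cyclin E2, were not well above background on either iCM array or either neoCM array. Aurkb read -1.42 and -1.70 in neoCF, so it was at least 22.7-fold lower in iCM (adjusted p = 2.6e-05) and at least 13-fold lower in neoCM (adjusted p = 0.0004). Ccne2 read -3.82 and -4.51 in neoCF, at least 3.74-fold above iCM and at least 2.14-fold above neoCM. In these folds the dim side is set to the lowest signal well above background on its arrays, or to its own reading where that is higher. Both probes are among the poorest in G and C (20% for Aurkb and 15% for Ccne2). Of 36 genes whose probe has at most 20% G and C, 63.9% were called lower in neoCM than in neoCF and 41.7% lower in iCM than in neoCF, against 16.1% and 19.4% of the rest. Whether probe composition has a part in the Aurkb and Ccne2 values was not tested.

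G1 genes did not follow the others in iCM. Ccnd2, cyclin D2, stood at 3.45 and 3.27 in neoCF, 4.08 and 4.05 in neoCM and 5.45 and 5.12 in iCM. It was higher in iCM than in neoCF (1.93 ± 0.15, adjusted p = 2e-09), neoCM (1.22), the early iPSC-derived groups (1.88) and CF D0 (1.01, a call lost without 1 array in 2 of 4 cases), and no arrays overlapped. Against the infected day 14 cultures no G1 gene was called higher in iCM: Ccnd2 stood at 4.96 and 4.99 in MGT D14 and at 5.47 and 5.68, above both iCM arrays, in LacZ D14. Ccnd1, cyclin D1, read 4.90 and 4.98 in iCM, 3.29 and 2.93 in neoCM and 0.89 to 2.56 on the 4 early iPSC-derived arrays. It was higher in iCM than in neoCM (1.83 ± 0.39, adjusted p = 0.00055), the iPSC-derived groups (3.18) and CF D0 (1.16, adjusted p = 0.016, lost when any 1 of 4 arrays was left out). Cdk6, the kinase partner of D cyclins, was higher in iCM than in neoCM (1.20) and than in the iPSC-derived groups (1.98), and E2f1 than in the latter (1.32 ± 0.40, adjusted p = 0.0069). For E2f1 both iPSC1-CM D13 arrays (1.35 and 1.38) lay between the iCM arrays (1.41 and 1.29), and the difference came from iPSC2-CM D9 (-1.48 and -1.12).

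Cyclin E1 went the other way, and its kinase did so against some of the references. Ccne1, cyclin E1, read 0.72 and 0.74 in iCM, the lowest of all groups, against 1.81 and 1.82 in MGT D14 and 2.59 and 2.40 in LacZ D14. It was lower in iCM by 1.09 ± 0.13 (adjusted p = 2.9e-06) and 1.77 ± 0.13 (adjusted p = 3.4e-09), by 1.07 against neoCM, 1.12 against the iPSC-derived groups and 2.37 against CF D0. Ccne2 was also called lower in all 6 comparisons. With normexp background correction and quantile normalization its calls against neoCF and LacZ D14 were lost, and its difference from neoCM turned to 0.02 (adjusted p = 0.943). Against neoCM and LacZ D14 neither group was well above background. Cdk2 was lower in iCM than in neoCF (-1.24), neoCM (-1.85) and CF D0 (-1.64). It was not lower than in the day 14 cultures, with a mean of -1.17 in iCM, -1.32 in MGT D14 and -1.34 in LacZ D14. Cdk4 was lower than in CF D0 (-1.45) and than in the iPSC-derived groups (-1.03), the latter a call lost under 4 other settings and without iCM replicate 2. Of 7 CDK inhibitor genes, Cdkn2a (9.42), Cdkn2b (6.51) and Cdkn1a (3.39) were higher and Cdkn1c (-1.44) lower in iCM than in neoCF, and against MGT D14 the 1 called was Cdkn1c (5.73 higher).

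**Figure D3:**
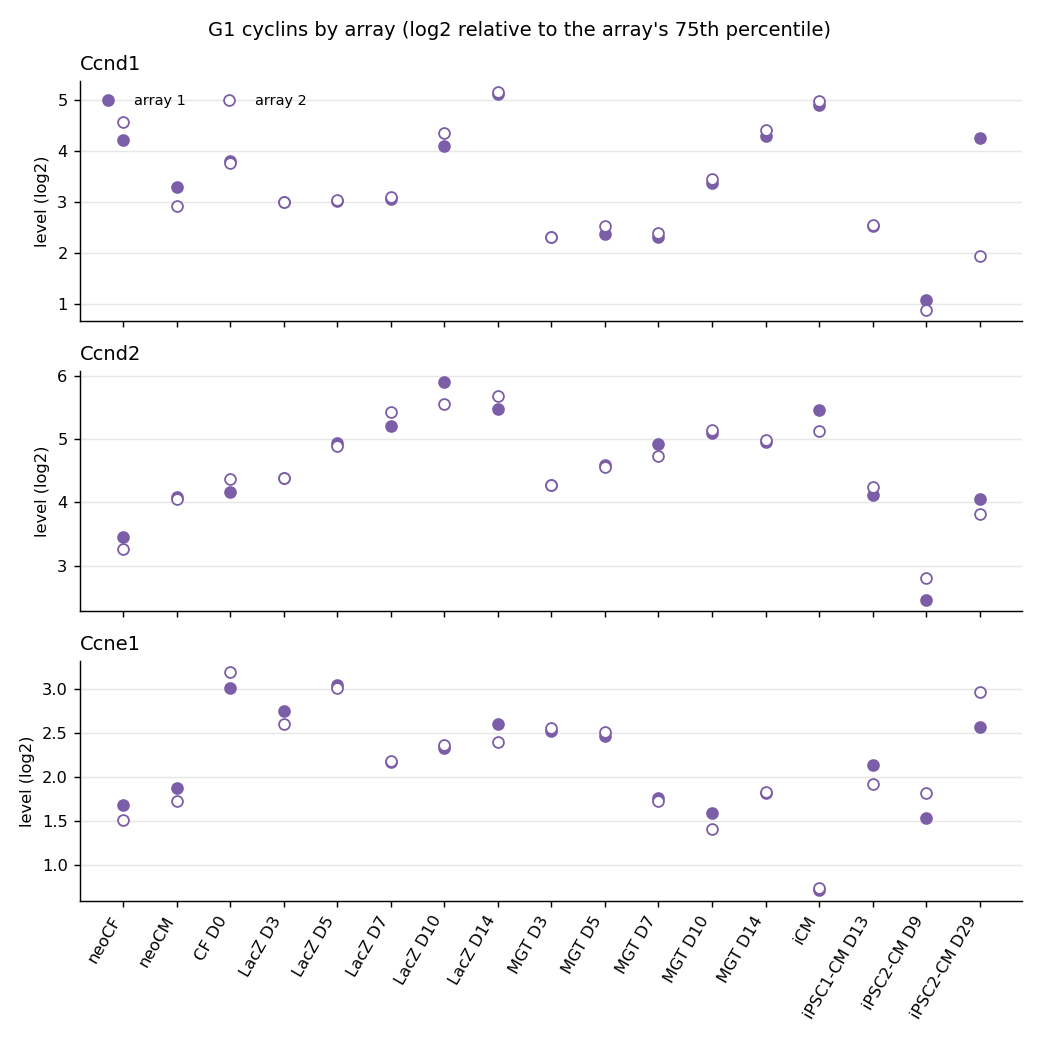
Level (y axis, log2 relative to the 75th percentile of the array) of Ccnd1, Ccnd2 and Ccne1 in 17 groups (x axis); filled and open points are the 2 arrays. In iCM, Ccnd2 (5.45 and 5.12) is above neoCF, neoCM and CF D0, while Ccne1 (0.72 and 0.74) is the lowest of all groups.

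Newborn cardiomyocytes and fibroblasts differed by less than 2-fold in most division transcripts. Between neoCM and neoCF, 5 of the 49 genes were called, all lower in neoCM, while 31.6% of all genes were called, 15.4% higher and 16.2% lower. They were Aurkb, Ccne2, Ccnd1 (-1.28 ± 0.39, adjusted p = 0.0107), Cdk6 (-1.0 ± 0.19, adjusted p = 0.00021) and Cdc6 (-1.12 ± 0.41, adjusted p = 0.0277). Cdk6 read -1.76 and -1.66 in neoCF and -2.69 and -2.73 in neoCM. The median difference was -0.27 for mitosis genes and -0.31 for replication genes, against -0.05 over all genes. By estimate 34 of the 49 genes were lower in neoCM. In limma without the D29 arrays 24 had an unadjusted p under 0.05 and 5 were called, where 34.1% of all genes were. Mki67 stood at 4.39 and 4.34 in neoCM, below both neoCF arrays by less than 1. The count was 2 without neoCF replicate 2 and 3 without neoCM replicate 2, and with normexp and quantile normalization 3 were called. Macrophage markers (10 of 10) and endothelial markers (7 of 8) were lower and erythroid markers (5 of 5) higher in neoCM than in neoCF. Their part in the members' values was not tested, and slide and group cannot be told apart.

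Day 0 fibroblasts had higher replication transcripts than fresh ones. Of 12 replication genes 7 were higher in CF D0 than in neoCF, and of 28 mitosis genes 4 were lower and 1 higher, with 34.9% of all genes called, 17.5% higher and 17.4% lower. The share of mitosis genes called lower was near that of all genes. Tyms, thymidylate synthase, rose from -1.64 and -1.81 to -0.12 and -0.13 (1.60 ± 0.20, adjusted p = 1.3e-06). Cdc6 (1.48) and Rrm2 (1.33), the small subunit of ribonucleotide reductase, also rose, as did both E cyclins, Ccne1 from 1.68 and 1.51 to 3.01 and 3.19 (1.5 ± 0.13, adjusted p = 1.2e-08) and Ccne2 by 1.58. Cenpf, a kinetochore protein, read -3.73 and -3.91 in neoCF and was not well above background on either CF D0 array, at least 2.29-fold lower (adjusted p = 0.0011). Cenpa fell from 2.71 and 2.83 to 0.93 and 0.98 (-1.81 ± 0.27, adjusted p = 1.4e-05) and Ccnb2 from 4.21 and 4.20 to 2.41 and 2.40 (-1.80 ± 0.43, adjusted p = 0.0014). Mybl2 rose (1.14 ± 0.38, adjusted p = 0.0142), against the larger direction of its subset.

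The balance of this comparison depended on the scaling. The median of all genes shifted by 0.105. With quantile normalization 4 members were higher and 7 lower in place of 10 higher and 4 lower, and the median difference was 0.60 for replication genes (2 higher) and -0.83 for mitosis genes (5 lower); the authors' deposited values gave 4 higher and 6 lower. The calls for Rrm2 and Mybl2 were lost in each of these. The shares of all genes called under these other scalings are not given here. Without the D29 arrays, 8 replication genes were higher and 9 mitosis genes lower, where 18.3% of all genes were higher and 18.8% lower. Without neoCF replicate 2 the median difference was 1.09 for replication genes and -0.37 for mitosis genes. Cardiomyocyte markers were lower in CF D0 for 10 of 10, summed to 4.44 and 4.28 against 7.65 and 7.12, and endothelial markers for 6 of 8; their part was not tested. The other replication genes moved with the members, 6 of 24 higher, led by Orc1 (2.06), of the origin complex, and Gins2 (1.47), and the other mitosis genes had 0 calls of 24.

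From day 0 to day 3 after infection the replication genes fell with either virus. In LacZ D3, 5 of 12 were lower than in CF D0, with 15.5% of all genes called, 9.21% higher and 6.29% lower. In MGT D3, 8 of 12 were lower, with 20.8% of all genes called, 11.1% higher and 9.66% lower. These comparisons share the CF D0 arrays. Cdc6 went from 0.97 and 0.86 in CF D0 to -0.59 and -0.66 in LacZ D3 (-1.54 ± 0.41, adjusted p = 0.0067) and -0.91 and -0.90 in MGT D3 (-1.82 ± 0.41, adjusted p = 0.0014). Mcm6 (-1.35) and Rrm2 (-1.27) also fell in LacZ D3, though leaving out any 1 of the 4 arrays ended both calls and left 4 or 5 of 8 called members. In MGT D3, Mcm2 fell by 1.65 ± 0.34 (adjusted p = 0.0007) and Mcm5 by 1.81 ± 0.69 (adjusted p = 0.0434). The Mcm5 call was lost under each other scaling, with no filter on dim probes and without any 1 of the 4 arrays.

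Cdk2 fell from 0.52 and 0.42 to between -0.85 and -0.76 in both arms (-1.28 and -1.24). Mybl2 fell from 3.23 and 3.18 to 1.53 and 1.65 in LacZ D3 and to 1.19 and 1.32 in MGT D3. Ccnd1 fell in MGT D3, from 3.80 and 3.76 to 2.32 on both arrays (-1.46 ± 0.39, adjusted p = 0.0061). Cenpa rose, from 0.93 and 0.98 to 2.06 and 2.08 in LacZ D3 (1.11 ± 0.27, adjusted p = 0.0038) and to 2.62 and 2.55 in MGT D3 (1.63 ± 0.27, adjusted p = 8.5e-05). The median mitosis difference was 0.49 in LacZ D3 and 0.27 in MGT D3. Cenpf was called higher in MGT D3 (adjusted p = 0.048) but not with the authors' values, with no filter on dim probes or with any 1 array left out. Day 0 and day 3 lay on different slides, so slide and time cannot be told apart.

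Within the infected cultures the mitosis genes dropped between day 5 and day 7. All 28 were lower in LacZ D7 than in LacZ D5 by estimate, with a median of -1.45 against -0.034 over all genes. Ccnb1, cyclin B1, read 3.16 and 3.22 on day 5 and 1.65 and 1.45 on day 7, and Mki67 4.21 and 4.24 against 2.82 on both arrays. In the fit to all arrays 3 mitosis genes were called, Ccnb2 (-1.61 ± 0.43, adjusted p = 0.0344), Aurka, a centrosome kinase (-1.60 ± 0.41, adjusted p = 0.0305), and Cenpa (-1.5 ± 0.27, adjusted p = 0.0025), where 2.56% of all genes were called, 1.36% higher and 1.20% lower. Without the D29 arrays 27 of 28 mitosis genes, 3 of 12 replication genes (Cdc6, E2f8 and Mcm5) and 1 G1 gene (Ccne2) were called lower, where 3.94% of all genes were. Leaving out any 1 of the 4 arrays from the fit to all arrays left 1 call. Macrophage markers were higher on day 7 for 3 of 10, summing to 5.67 and 5.49 against 4.44 and 4.43; their part was not tested. The days lay on different slides, and slide and day cannot be told apart.

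In the MGT arm the drop was smaller by estimate: 27 of 28 mitosis genes were lower on day 7 than on day 5, with a median of -0.80, and the exception was Cenpa (0.13). No member was called by limma, where 3 had an unadjusted p under 0.05 and 1.28% of all genes were called, 0.927% higher and 0.356% lower. Without the D29 arrays Ccnb2 (-1.01) and Kif20a (-1.04), a kinesin of cytokinesis, were called, where 3.61% of all genes were. In that fit 37 members had an unadjusted p under 0.05. Whether the drop differed between the arms was not tested.

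By day 14 the mitosis genes remained below day 3. In LacZ cultures 27 of 28 were lower by estimate, median -0.81, and in MGT cultures 27 of 28, median -0.77. In the fit to all arrays Anln alone was called lower in LacZ (-1.36 ± 0.43, adjusted p = 0.022), where 14.4% of all genes were called, 8.44% higher and 6.01% lower. In MGT, Kif23 (-1.54 ± 0.53, adjusted p = 0.0369) and Mybl2 (-1.09 ± 0.38, adjusted p = 0.0378) were called lower, where 12.1% of all genes were called, 7.01% higher and 5.05% lower. The counts of lower mitosis genes without the D29 arrays were 11 and 9, beside 7.73% and 6.54% of all genes. Of replication genes, Mcm4 in LacZ (-1.01) and Tyms in MGT (-1.11) were called lower. Leaving out any 1 of the 4 arrays ended the calls of Anln, Kif23 and Mybl2 in the fit to all arrays.

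Ccnd1 rose over the same days in both arms. It read 2.99 and 3.00 in LacZ D3, 4.10 and 4.36 in LacZ D10 and 5.11 and 5.15 in LacZ D14 (day 14 against day 3: 2.13 ± 0.39, adjusted p = 0.00044). In MGT it read 2.32 on both day 3 arrays and 4.29 and 4.40 on day 14 (2.03 ± 0.39, adjusted p = 0.00081). Ccnd2 rose in LacZ from 4.39 and 4.38 to 5.47 and 5.68 (1.19 ± 0.15, adjusted p = 7.4e-06), and Ccne2, not well above background on either LacZ D14 array, was at least 1.97-fold lower there (adjusted p = 0.011), a call lost with normexp, with only the groups compared and without either of 2 arrays. Macrophage markers rose too, 9 of 10 in LacZ and 5 of 10 in MGT, from sums of 5.39 and 5.38 to 8.02 and 8.46 in LacZ; their part in these differences was not tested. Days 3 and 14 lay on different slides.

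**Figure D4:**
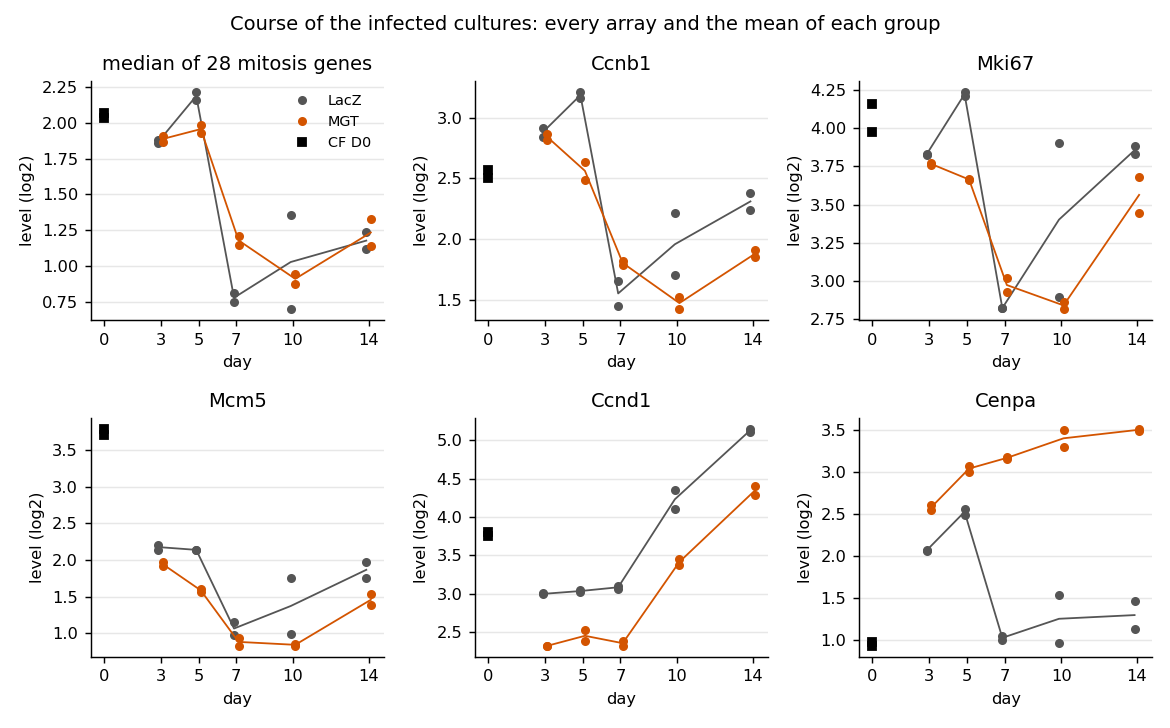
Level (y axis, log2 relative to the 75th percentile of the array) by day after infection (x axis) in LacZ (grey) and MGT (orange) cultures, with CF D0 as squares; points are arrays and lines join group means. The mitosis median falls between day 5 and day 7 in both arms, Ccnd1 ends at 5.11 and 5.15 in LacZ and 4.29 and 4.40 in MGT, and Cenpa parts between the arms from day 7.

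At matched days few of these genes differed by 2-fold between the factors and the control virus. MGT against LacZ gave 0 called members by limma on day 3, where 1 had an unadjusted p under 0.05 and 5.05% of all genes were called (3.19% higher and 1.86% lower). It gave 0 on day 5 as well, where 4 had an unadjusted p under 0.05 and 8.29% of all genes were called (4.82% higher and 3.46% lower). Both counts stayed at 0 without the D29 arrays, but 14 and 32 members had an unadjusted p under 0.05, with differences under 2-fold. On days 7, 10 and 14 the 1 member called was Cenpa, higher in MGT. The arms shared a slide on days 3, 5, 7 and 10 but not on day 14, where slide and arm cannot be told apart. All genes called were 8.77% on day 7 (5.26% higher and 3.51% lower), 8.61% on day 10 (5.30% higher and 3.31% lower) and 13% on day 14 (5.93% higher and 7.05% lower). The median mitosis difference was -0.17, -0.45, 0.13, -0.38 and -0.13 on the 5 days. Over all genes the median was -0.055, -0.097, -0.086, -0.121 and -0.107. Cardiomyocyte markers were higher in MGT for 7, 9, 10, 10 and 10 of 10 over the same days. Cenpf also passed on day 10 without the D29 arrays, but it was not well above background on any of the 4 arrays, so no difference is given.

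Cenpa stood apart from the other mitosis genes. In MGT it read 3.15 and 3.19 on day 7, 3.51 and 3.30 on day 10 and 3.52 and 3.49 on day 14. In LacZ it read 1.01 and 1.05, 0.97 and 1.54, and 1.47 and 1.13. The arms did not overlap on any day from 3 on. The same held for 41, 46, 39, 31 and 30 of the 49 members on days 3, 5, 7, 10 and 14, so it does not by itself set Cenpa apart. The share over all genes was not counted, so these counts show nothing particular to the members. On day 14 the arms lay on different slides. The difference was 2.14, 2.15 and 2.21 on the 3 later days (SE 0.27; adjusted p = 9.8e-06, 9e-06 and 6.4e-06), and each call held without any 1 array. On day 3 it was 0.51, and the test of the change between day 3 and day 10 gave 1.64 ± 0.39 (adjusted p = 0.0249), where 1.99% of all genes were called, 1.41% higher and 0.582% lower. This call was lost with quantile normalization (adjusted p = 0.0524), with the authors' values (adjusted p = 0.0624) and in 7 of 8 cases when 1 array was left out. Cenpa in iCM (1.84 and 1.92) lay below MGT D14 but above LacZ D14.

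Cenpa was read by 1 probe, which the array design places at chr5:30974916-30975386 (mm9), a span longer than the probe. Its sequence is printed because the Cenpa result rests on it alone.
Cenpa probe: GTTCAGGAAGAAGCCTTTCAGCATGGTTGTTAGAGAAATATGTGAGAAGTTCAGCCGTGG
Of the 11 members with 2 or more probes, the other probes had the sign of the chosen one in 73 of 74 called comparisons, the exception being Mad2l1, a spindle checkpoint protein, in iCM against neoCM (-1.13 to 0.08).

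The early iPSC-derived groups differed from neoCM in different genes. In iPSC1-CM D13, 5 of 28 mitosis genes, 2 of 12 replication genes and 3 of 9 G1 genes were higher than in neoCM and 1 G1 gene lower, with 36.8% of all genes called, 18.6% higher and 18.2% lower, so the shares of mitosis and replication genes called higher were near that of all genes. Without the D29 arrays 12 mitosis and 3 replication genes were higher, where 19.7% of all genes were. Aurka stood at 3.80 and 3.67 in iPSC1-CM D13 and at 2.16 and 1.94 in neoCM (1.68 ± 0.41, adjusted p = 0.0018). Cdc25c, the phosphatase that activates Cdk1, stood at -0.27 and -0.41 against -2.11 and -1.85, at the edge of the threshold (adjusted p = 0.05) and lost without any 1 array. Cdt1, a helicase loader, was higher by 1.39 ± 0.34 (adjusted p = 0.0016), while Cdc6 (1.0) lost its call in 4 of the settings and without any 1 array. Aurkb was at least 17.8-fold higher and Ccne2 at least 4.5-fold higher, the low G and C probes again; 24 of the 36 genes with such probes were called higher here. Cdk4 (1.16) and Ccnd3 (1.06) were higher, but by under 2-fold with quantile normalization (0.77 and 0.60). Cdk2 was lower (-1.29 ± 0.20, adjusted p = 2.1e-05). The other mitosis genes moved with the members, 6 of 24 higher, led by Cdk1 (2.38), the mitotic kinase, and Cks2 (1.65), its subunit.

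In iPSC2-CM D9 part of the replication and G1 genes were lower than in neoCM, while most mitosis genes were not. By estimate 3 of 12 replication and 3 of 9 G1 genes were higher in iPSC2-CM D9, E2f8 (2.20 against 1.30) among them. Against neoCM, 5 of 12 replication and 4 of 9 G1 genes were lower and 1 G1 gene (Ccne2, at least 5.92-fold) higher, and 4 of 28 mitosis genes were higher and 1 lower, with 41.3% of all genes called, 20.7% higher and 20.5% lower. E2f1 stood at -1.48 and -1.12 against 0.85 and 0.97 in neoCM (-2.21 ± 0.46, adjusted p = 0.00039). Ccnd1 stood at 1.08 and 0.89 against 3.29 and 2.93 (-2.13 ± 0.39, adjusted p = 0.00011). Mcm5 (-2.10), Cdc6 (-2.04), Pcna (-1.25), Ccnd2 (-1.43) and Cdk2 (-1.10) were lower too. Cenpa was higher (4.11 and 4.19 against 2.58 and 2.65; 1.54 ± 0.27, adjusted p = 7.4e-05), as was Aurkb (at least 7.93-fold), and Cdc25b, a phosphatase, was lower (0.22 and 0.29 against 2.33 and 2.22; -2.02 ± 0.68, adjusted p = 0.015, lost in 3 of 4 cases without 1 array). Erythroid markers were lower in both iPSC-derived groups (5 of 5) and macrophage markers in 9 of 10 (iPSC1-CM D13) and 7 of 10 (iPSC2-CM D9). Cardiomyocyte markers were lower in iPSC1-CM D13 for 9 of 10, and fibroblast markers in iPSC2-CM D9 for 9 of 10, summing to 5.06 and 4.76 against 10.0 and 9.98 in neoCM. The part of these cells was not tested. These groups shared no slide with neoCM.

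The arrays of the long-term culture differed from each other. In iPSC2-CM D29 all 28 mitosis genes were more than 2-fold lower on replicate 2 than on replicate 1, by a median of 3.87. Mki67 read 4.18 and -2.25, Ccnb1 3.55 and -1.64 and Bub1 1.02 and -6.23. Relative to the D9 mean, the median mitosis gene lay at -0.25 on replicate 1 and at -3.91 on replicate 2. Replication genes lay at 1.13 and -1.52. The 75th percentile intensities were 1519 on replicate 1 and 1606 on replicate 2, with 44881 and 40054 spots well above background. The marker sums differed: fibroblast markers summed to 8.62 on replicate 1 and 3.64 on replicate 2, and cardiomyocyte markers to 8.76 and 10.2. Whether array signal or cell makeup has a part in the difference was not tested.

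The comparison of D29 with D9 depended on which array was kept. With both, 24 of 28 mitosis genes were lower, 3 replication and 3 G1 genes higher and E2f8 lower, with 24.2% of all genes called, 14.8% higher and 9.39% lower. Without replicate 2 the median difference from D9 was -0.25 for mitosis genes and 1.13 for replication genes. Without replicate 1 the median difference was -3.91 for mitosis genes and -1.52 for replication genes. In a limma fit to these groups alone no member was called, and 4 had an unadjusted p under 0.05. Pcna differed from D9 alike on both D29 arrays (5.4 and 5.43, against 3.77 and 3.17 on day 9; 1.95 ± 0.18, adjusted p = 4.5e-08), and so did Ccnd2 (4.05 and 3.82, against 2.46 and 2.81; 1.30 ± 0.15, adjusted p = 9.2e-07) and Ccne1 (2.56 and 2.96, against 1.53 and 1.82; 1.09 ± 0.13, adjusted p = 2e-06). Ccnd1 (4.25 and 1.94) and Cdc6 (-0.64 and -2.85) were called higher but parted between the arrays.

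**Figure D5:**
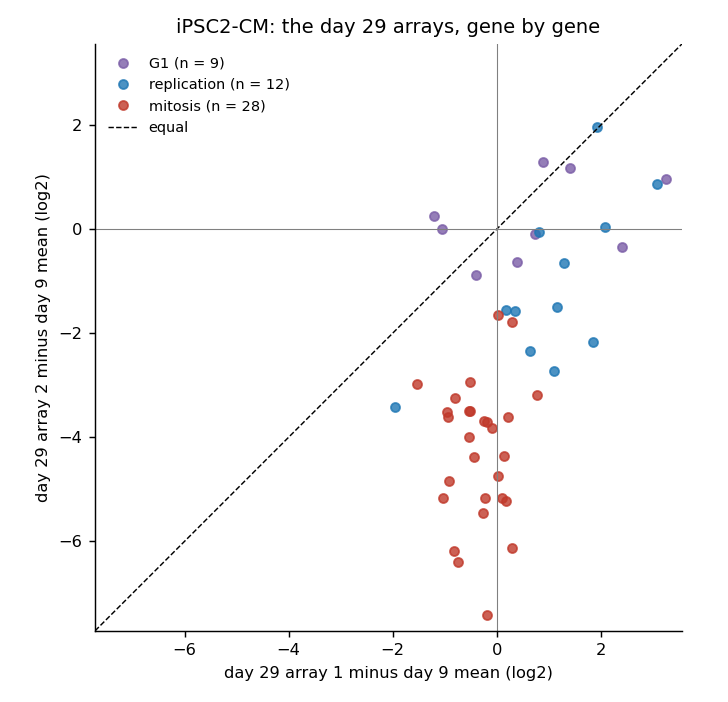
Difference from the iPSC2-CM D9 mean on D29 replicate 1 (x axis, log2) and replicate 2 (y axis, log2), 1 point per gene, coloured by subset; the dashed line marks equal differences. All 28 mitosis genes lie below the line (median -0.25 on replicate 1 and -3.91 on replicate 2), while Pcna lies close to it.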

How the data were processed

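Total RNA of 34 samples was hybridised to single-colour Agilent mouse arrays, and the deposited files hold spot intensities from Feature Extraction 10.7.3.1, background-adjusted and detrended within each array per the file headers. Each intensity was taken as log2 and scaled to the 75th percentile of its array; outlier spots were left out and spots of a probe averaged. A probe was kept where 1 or more groups had it well above background on each array. The probe with the highest mean stood for a gene, named through RefSeq tables (GRCm38.p6) by accession, symbol or synonym; the 49 members were matched by the file's own name. One model over all 34 arrays with a mean for each of 17 groups was fitted with limma 3.58.1 in R 4.3.3 (17 residual degrees of freedom) and tested 23 comparisons over 19408 genes, 4 of them and the fit without the D29 arrays added later. The settings were checked on simulated data. The members and gene lists were chosen with earlier results of these data known. The text names, per comparison and subset, the 3 called members with the largest change, those against the larger direction and all called G1 members, and of other lists the 2 largest rises and falls.

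The authors' deposited value table holds log2 values whose normalization is not given in the sources used here, except that the submitters' processing notes name limma. Its 56083 rows correlated at 0.982 to 0.996 with the matching arrays, with column medians of 7.49 to 7.52; its centring is unknown, and it served as an alternative. Arrays lay on 6 slides, tested as a block where possible. Same-numbered arrays did not deviate together: over 136 pairs of groups the correlation had a median of 0.001, from -0.134 to 0.175. With 2 arrays per group the number of arrays limits the precision.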

Additional observations from a re-analysis of the deposited data

Results flagged for a closer look

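The difference in Cenpa between MGT and LacZ cultures changed between day 3 and day 10 by 1.64 on the log2 scale (adjusted p = 0.0249, limma, over all genes tested), which marks it because the effect of the factors was not the same at both times. Cenpa was higher in MGT than in LacZ on both arrays of each day. The call was lost with quantile normalization, with the authors' values and without any of 7 of the 8 arrays taken 1 at a time.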

How the results depend on the processing

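Counts below are called members out of 49. In CF D0 against neoCF, 14 (10 higher) became 11 with quantile normalization, 11 with normexp and quantile normalization and 10 with the authors' values, each mostly lower. Other settings put iPSC1-CM D13 against neoCM (11) at 7 with normexp background correction and quantile normalization together, 7 with the authors' values and 7 with the mean of probes, neoCM against neoCF (5) at 3 with normexp and quantile normalization, MGT D14 against D3 (4) at 2 with quantile normalization, LacZ D7 against D5 (3) at 1 and MGT against LacZ on day 10 (1) at 2 with the same, and the change of that effect between days 3 and 10 (1) at 0 with it and 0 with the authors' values. The cause of these was not tested. The spread of the D29 arrays set most of the rest. With both left out, with array weights, or with only the groups compared, the counts were, in that order, 15, 15 and 14 for LacZ D14 against D3 (5), 12, 12 and 12 for MGT D14 against D3, 31, 31 and 30 for LacZ D7 against D5, 2, 3 and 3 for MGT D7 against D5 (0), 19, 19 and 19 for iPSC1-CM D13, 2, 2 and 2 for MGT against LacZ on day 10, and 2, 2 and 2 for the change of that effect. iPSC2-CM D29 against D9 (31) had 2 with array weights and 0 with only those groups. With no fold minimum there were 9 for neoCM against neoCF, 9 for LacZ and 9 for MGT D14 against D3, 2, 3, 3 and 5 for MGT against LacZ on days 5, 7, 10 and 14 (1 higher and 2, 2 and 4 lower on the last 3 of these), 2 for the change of that effect and 1 for MGT D7 against D5. Slide as a random block gave 9 and 7 for LacZ and MGT D14 against D3 and 9 for LacZ D7 against D5. LacZ D7 against D5 had 5 with no filter on dim probes and 5 with the stricter filter on dim probes, which gave 2 for MGT against LacZ on day 10.

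Leaving out 1 array gave 38 to 39 for iCM against neoCF (39), 39 to 39 against neoCM (41), 42 to 44 against the iPSC-derived groups (44), 39 to 40 against CF D0 (42), 19 to 23 against MGT D14 (33) and 22 to 30 against LacZ D14 (36). It gave 2 to 4 for neoCM and 9 to 13 for CF D0 against neoCF, 4 to 5 for LacZ D3 (8) and 9 to 10 for MGT D3 (13) against CF D0, 2 to 3 for LacZ (2 of them higher each time, where the fit to all arrays had 2 higher and 3 lower) and 2 to 2 for MGT D14 against D3, 1 to 1 for LacZ and 0 to 0 for MGT D7 against D5. It gave 0 to 0 for MGT against LacZ on days 3 and 5, 1 to 1 on days 7, 10 and 14, 0 to 1 for the change of that effect, 8 to 9 for iPSC1-CM D13 and 11 to 13 for iPSC2-CM D9 (15) against neoCM, and 15 to 38 for iPSC2-CM D29 against D9 (10 higher and 5 lower without replicate 2). With the replicate number as a block the counts were 5 for neoCM against neoCF, 40 for iCM against neoCM, 12 for MGT D3 against CF D0 and 10 for iPSC1-CM D13; the others equalled the fit without it. The block ended the calls of Cenpf in MGT D3 (adjusted p = 0.0514) and Cdc25c in iPSC1-CM D13 (adjusted p = 0.0521), and the numbers did not pair the samples.

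Over the genes named, 1974 alternative values kept their call, 184 lost it and 2 turned: Ccne2 in iCM against neoCM went from -1.24 to 0.021 with normexp and to 0.13 with the authors' values. The median of all genes shifted by more than 0.1 for CF D0 against neoCF (0.105), MGT against LacZ on days 10 (-0.121) and 14 (-0.107), MGT D3 against CF D0 (-0.101), and iCM against LacZ D14 (-0.137), the iPSC-derived groups (-0.150) and CF D0 (-0.221). Aurkb, Ccne2 and Cenpf were near background in several groups, which limits them to bounds there.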
